A study of Homo sapiens with 26 samples.

Results

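Histone H3 acetylated at lysine 27 (H3K27ac) and histone H3 monomethylated at lysine 4 (H3K4me1) were compared in untreated HCT116 cells, an established epithelial line from a human colorectal carcinoma with wild-type p53. Overlapping peaks of the 2 ChIP-seq lists of each mark were joined, and a joined region was kept when both lists held a peak in it. The kept regions were then divided by an overlap of at least 1 bp into 967 with H3K27ac only, 26396 with both marks and 52190 with H3K4me1 only. These 79553 regions stand beside 197879 merged regions over all lists and both marks of the series. The class with both marks was counted in H3K27ac regions, and these fell in 24534 H3K4me1 regions.

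The series holds 16 peak lists, 10 for H3K27ac and 6 for H3K4me1, in the parental line (WT) and in an HCT116 derivative named for the cohesin subunit RAD21, before and after Nutlin-3a, a p53 activator that blocks HDM2. The study describes this derivative as carrying RAD21 with an auxin-inducible degron and its libraries as RAD21-depleted with the auxin analogue 5-Ph-IAA. The labels give the line and DMSO or Nutlin-3a alone, and the peak names of these lists carry the letters KD. The 4 lists described here came from WT cells at 0 h of Nutlin-3a, which the study defines as cells given the drug vehicle DMSO, so all 4 share the parental genotype and the vehicle. All libraries came from 1 cell line, and the replicate labels state separate samples without a donor or an animal behind them. Coordinates are 1-based on GRCh37, the build of the deposited lists.

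Both marks decorate regulatory DNA. H3K27ac is deposited by the acetyltransferases p300 and CBP at active promoters and enhancers. H3K4me1 is deposited mainly by the KMT2C and KMT2D methyltransferases over enhancers, primed ones included, while at active promoters trimethylation of the same lysine takes its place around the start and monomethylation flanks it. In colorectal epithelium, enhancers of this kind are bound by intestinal factors such as CDX2 and HNF4A, by the Wnt effector TCF7L2 and by AP-1, the dimers of FOS and JUN proteins.

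The H3K27ac lists held 33976 and 32739 peaks in replicates 1 and 2, with median widths of 826 and 868 bp. The H3K4me1 lists held 91730 and 86207 peaks, with median widths of 1166 and 1152 bp. H3K27ac had been called in narrow mode and H3K4me1 in broad mode, so widths and scores are not on 1 scale between the marks. In both H3K27ac lists the peak names lack the word input, as in replicate 1 of WT at 1 h and in no other of the 10 H3K27ac lists. In these 3 lists the widest peak spanned 3905 to 4210 bp and the highest fold was 30.2 to 31.5, against 39572 to 68414 bp and 102.5 to 295.8 in the 7 lists with the word. They also held 3 or 4 peaks on the mitochondrial genome, and the other 7 held 0. The H3K27ac-only class is the one that this touches most, and its values are given below with and without the lists that carry the word. The labelled cell type was checked against its markers. Of 10 epithelial colon genes, 9 had both marks at a promoter (EPCAM, CDH1, KRT8, KRT18, KRT19, CLDN3, CLDN4, CLDN7 and CDX2), and VIL1 had neither. These 10 were chosen as markers: of the whole list of 20 epithelial genes described below 14 had both marks, against 58.5% of all coding genes, and of 16 enterocyte genes 2 had.

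Stretches of the GRCh37 plus strand from top-ranking regions of each class are shown first, because the classes differed in base composition and in short motifs. They are centred on the H3K27ac summit or, for H3K4me1 only, on the middle of the region, with exonic bases left out. Capitals mark matches to the letters searched below (TGANTCA for AP-1, GGAATG for TEAD factors, CCGGAAG for ETS factors, on both strands). Higher-ranking regions whose stretch fell on exons, at small nuclear RNA genes or outside all lists with input were passed over after their values had been seen, and the DAGLA stretch was chosen for its match.
XBP1 intron, H3K27ac only, chr22:29196161-29196285: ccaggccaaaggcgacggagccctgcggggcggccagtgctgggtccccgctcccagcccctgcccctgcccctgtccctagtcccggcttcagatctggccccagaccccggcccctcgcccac
PPP1R15A intron, both marks, chr19:49375909-49376030: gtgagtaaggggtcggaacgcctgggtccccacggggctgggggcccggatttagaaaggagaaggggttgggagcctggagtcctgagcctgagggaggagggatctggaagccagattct
Intergenic near IPO7, both marks, chr11:9385669-9385968: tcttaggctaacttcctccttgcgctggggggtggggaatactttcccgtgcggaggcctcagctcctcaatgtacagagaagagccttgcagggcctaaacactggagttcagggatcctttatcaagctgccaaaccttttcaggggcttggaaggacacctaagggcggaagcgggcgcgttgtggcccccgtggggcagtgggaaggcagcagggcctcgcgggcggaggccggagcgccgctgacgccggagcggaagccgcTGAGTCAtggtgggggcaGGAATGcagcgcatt
TRIP10 intron, H3K4me1 only, chr19:6738588-6738887: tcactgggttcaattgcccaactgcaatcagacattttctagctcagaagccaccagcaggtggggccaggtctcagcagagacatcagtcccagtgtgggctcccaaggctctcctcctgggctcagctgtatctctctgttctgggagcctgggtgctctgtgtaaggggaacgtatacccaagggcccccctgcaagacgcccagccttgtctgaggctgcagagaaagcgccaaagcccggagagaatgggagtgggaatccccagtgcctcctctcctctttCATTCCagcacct
Intergenic near GPR142, H3K4me1 only, chr17:72376487-72376786: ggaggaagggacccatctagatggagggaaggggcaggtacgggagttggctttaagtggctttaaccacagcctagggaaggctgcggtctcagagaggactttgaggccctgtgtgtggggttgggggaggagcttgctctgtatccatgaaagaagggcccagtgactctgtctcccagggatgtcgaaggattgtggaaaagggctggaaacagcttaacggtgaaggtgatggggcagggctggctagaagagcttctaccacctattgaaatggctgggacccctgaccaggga
DAGLA intron, H3K4me1 only, chr11:61498090-61498389: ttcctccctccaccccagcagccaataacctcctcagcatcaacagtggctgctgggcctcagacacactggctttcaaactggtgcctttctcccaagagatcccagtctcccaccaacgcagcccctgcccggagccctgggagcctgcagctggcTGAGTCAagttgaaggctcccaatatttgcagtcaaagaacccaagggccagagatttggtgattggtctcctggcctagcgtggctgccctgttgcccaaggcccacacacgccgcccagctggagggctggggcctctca
The XBP1 stretch was 76% G and C with 8 CG dinucleotides in 125 bases and held no match. The stretch near IPO7 held 19 CG dinucleotides in 300 bases, and its AP-1 letters lay 120 bp from the acetylation summit. In the DAGLA stretch the same letters lay 11 bp from the centre of the H3K4me1 region.

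The 2 marks covered very different lengths in these lists, which were called narrow for H3K27ac and broad for H3K4me1. The study also set a higher minimum of read pairs for H3K4me1. Regions of H3K27ac called in both lists covered 31.5 Mb, and those of H3K4me1 covered 200.9 Mb. They shared 25.5 Mb, which was 80.8% of the acetylated bases and 12.7% of the monomethylated bases. Single H3K27ac lists covered 30.9 and 30.7 Mb here and 49.1 to 66.6 Mb in those with the word input. The cause was not tested. Of the merged regions of each mark, 71.5% for H3K27ac (27363 of 38244) and 80.3% for H3K4me1 (76724 of 95519) were called in both replicates. Most acetylated regions lay inside longer monomethylated domains. The H3K4me1 regions that held H3K27ac had a median width of 3214 bp and reached 160547 bp. Of these, 21838 (89.0%) held 1 acetylated region, 1954 held 2 and 742 held 3 or more, with 25 in the richest.

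Promoters, taken as 1000 bp upstream to 200 bp downstream of annotated starts, cover 2.81% of the 24 chromosomes. They were overlapped by 51.3% of the H3K27ac-only regions (95% Wilson interval 48.1 to 54.4), by 50.6% of the regions with both marks (50.0 to 51.2) and by 10.9% of the H3K4me1-only regions (10.6 to 11.2). These intervals cover counting error only. With the replicate 1 lists alone the shares were 27.8%, 44.6% and 9.98%, and with the replicate 2 lists alone they were 35.0%, 44.8% and 10.4%. The shares of H3K27ac only and, by less, of both marks thus lay lower in either replicate alone than in the regions called in both. That of H3K4me1 only moved little. Introns held 45.4% of the H3K4me1-only regions and intergenic sequence 32.2%, against 25.8% and 17.2% of the regions with both marks.

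Median widths were 711 bp for H3K27ac only, 1118 bp for both and 1147 bp for H3K4me1 only. In each class regions at promoters were wider than those away from them. The medians were 969.5 against 533 bp for H3K27ac only, 1316 against 926 bp for both and 1425 against 1117 bp for H3K4me1 only. In these lists the tail was long only for monomethylation: the widest regions of the classes spanned 2682, 3977 and 58818 bp. This is not a trait of acetylation in all lists, because the widest H3K27ac peaks spanned 39572 to 68414 bp in the 7 with the word input. The cause was not tested. The widest H3K27ac-only region lay over the shared promoter of GART and SON on chromosome 21 (chr21:34913467-34916148), the widest with both marks in an intron of MBNL2 (chr13:97907361-97911337), and the widest with H3K4me1 only over AKAP12 (chr6:151563016-151621833). AKAP12 encodes a scaffold for protein kinase A, and its domain held no H3K27ac peak in either list.

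**Figure D1:**
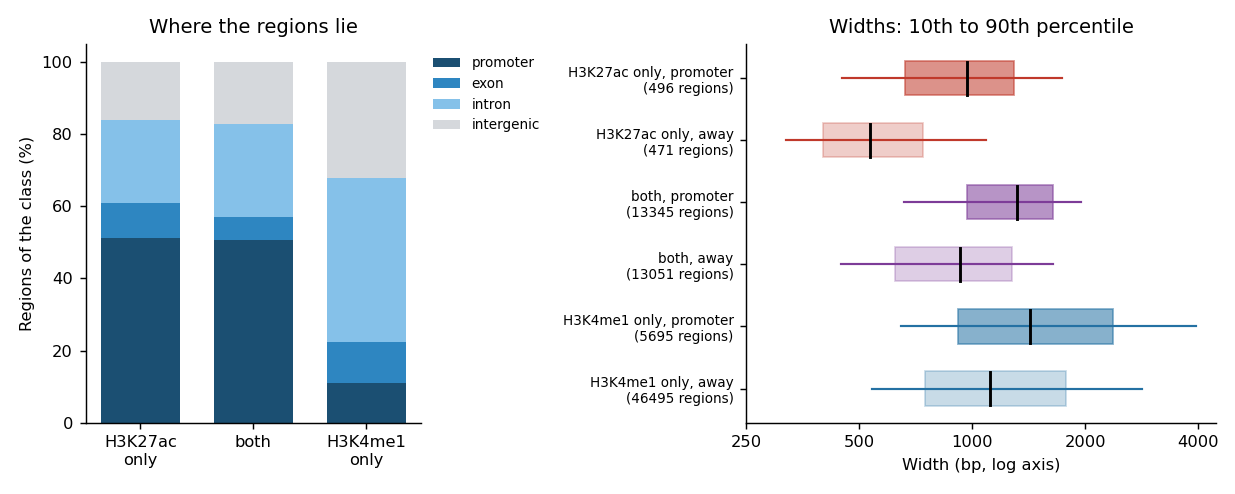
Left, share of the regions of each class (%) that overlapped a promoter, an exon, an intron or none of these. Right, region width in bp on a log axis, split at and away from promoters, with boxes from the 25th to the 75th percentile, lines from the 10th to the 90th and a black bar at the median; promoters take 51.3% and 50.6% of the 2 acetylated classes and 10.9% of H3K4me1 only.

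H3K27ac-only promoters were not free of monomethylation around them. Of 496 such regions, 315 (63.5%) had an H3K4me1 region within 1000 bp on both sides and 409 (82.5%) on at least 1 side. Away from promoters this held for 4 (0.849%) and 33 (7.01%) of 471. The class therefore held a promoter group flanked by monomethylation and a distal group that stood alone. Pairs of coding genes that start in opposite directions were frequent in the promoter group: 86 of 404 regions at coding promoters (21.3%, interval 17.6 to 25.5) covered such a pair. The share was 11.2% for both marks (1301 of 11585, 10.7 to 11.8) and 2.196% for H3K4me1 only (63 of 2869, 1.72 to 2.80). GART with SON, METTL4 with NDC80 (chr18:2570740-2572116), HCFC1 with TMEM187 and BTF3L4 with TXNDC12 were among the top or widest regions of the class.

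Around the canonical starts of 11727 coding genes with both marks at the promoter, acetylation and monomethylation were offset. At the start itself 87.0% lay in an H3K27ac region (83.8% and 85.3% with replicate 1 and 2 alone) and 58.7% in an H3K4me1 region (54.5% and 50.5%). At 1000 bp upstream H3K4me1 covered 81.4% (77.7% and 75.0%), and at 1000 bp downstream 84.7% (82.4% and 80.0%). In either replicate monomethylation was thus lower at the start than on both flanks. Acetylation was highest at 200 bp downstream (92.2%) and monomethylation at 1200 bp downstream (88.4%). The 383 starts with H3K27ac only showed the same arrangement with a wider gap, which the rule itself opens between 1000 bp upstream and 200 bp downstream: H3K4me1 covered 78.3% of them at 2000 bp upstream and 79.4% at 1000 bp downstream. At the 1824 starts with H3K4me1 only there was no dip. Monomethylation was highest at the start (73.5%) and fell to 48.6% and 37.7% at 1000 bp on either side. The rule itself favours this maximum, because it asks for H3K4me1 between 1000 bp upstream and 200 bp downstream.

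**Figure D2:**
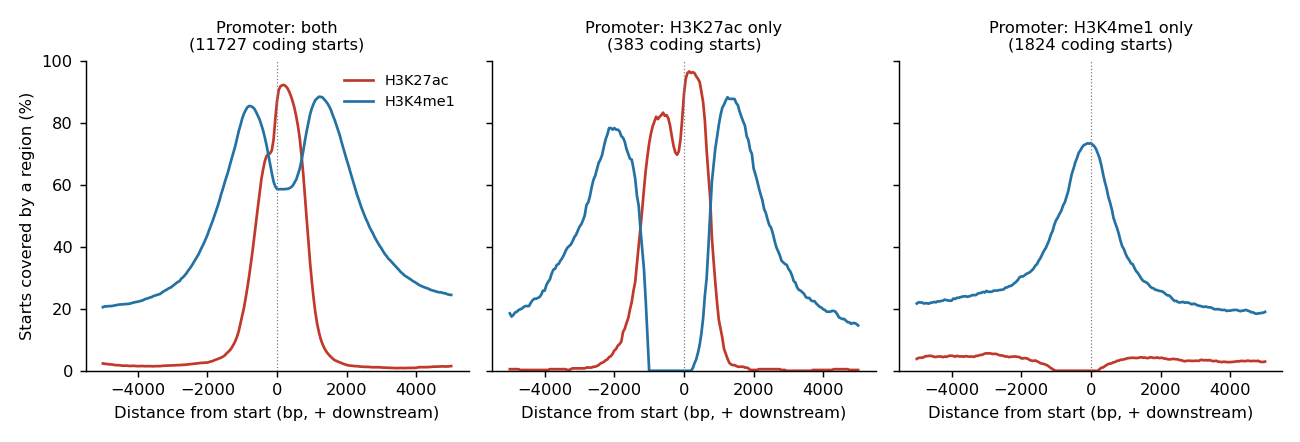
Share of canonical coding starts (%) covered by an H3K27ac or an H3K4me1 region against the distance from the start (bp, downstream positive), for promoters with both marks, H3K27ac only and H3K4me1 only. With both marks, H3K4me1 dips to 58.7% at the start between 81.4% and 84.7% on the flanks. With H3K4me1 only it peaks at the start (73.5%), inside the window where the rule asks for it.

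All 5 of the strongest H3K27ac-only regions were promoters, and no H3K4me1 peak of either list touched any of them. Strength was taken as a peak's percentile by −log10 p within its own list. RAB11B, a small GTPase of recycling endosomes, led the class (chr19:8455094-8455685, 592 bp) with percentiles of 99.988 and 99.985 in replicates 1 and 2 and folds over background of 18.8 and 19.1. XBP1, the transcription factor of the unfolded protein response, followed (chr22:29195474-29197231, 1758 bp) with folds of 11.99 and 11.03. Monomethylated regions ended 71 and 42 bp from its edges, so it was a promoter with both marks but for a gap of that size. The remaining 3 of the top 5 lay at MIRLET7A1HG, the host transcript of let-7 microRNAs (chr9:96928405-96929885), at METTL4 with NDC80, and at DCAF13 with SLC25A32 on chromosome 8.

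Away from promoters the H3K27ac-only regions ranked lower. Their median percentiles were 28.3 and 22.8 in the 2 lists, against 75.1 and 73.5 at promoters. Of the 7 H3K27ac lists whose names carry the word input, none held a peak in 146 of the 471 distal regions (31.0%, interval 26.99 to 35.3), and all held one in 66 (14.0%). At the 496 promoters these counts were 22 (4.44%) and 424 (85.5%). The distal region with the highest fold, chr14:88237560-88237832 (273 bp), had folds of 31.5 and 30.2, the highest of both whole lists, and no peak in any of the 7. The next, chr13:28033697-28034235 (folds 20.6 and 19.5), likewise had none there. These distal regions are uncertain members of the class, and the part of the input in this result was not tested.

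The 5 strongest regions with both marks were likewise promoters. The highest mean percentile over the 4 lists fell on the shared promoter of PAF1 and MED29 (chr19:39880806-39882571), subunits of the PAF1 elongation complex and of Mediator. Its H3K27ac percentiles were 99.526 and 99.695 and its H3K4me1 percentiles 99.822 and 99.516. Ranks 2 to 4 were copies of the U1 small nuclear RNA gene or its relatives (RNU1-3, RNU1-60P and RNU1-4), whose near-identical sequences leave the placing of reads uncertain. Rank 5 was PPP1R15A (chr19:49375205-49376884), which encodes GADD34 and restores translation after stress, with H3K27ac percentiles of 99.694 and 99.756 and H3K4me1 percentiles of 99.331 and 99.073. The top distal region lay between genes, 20380 bp from the start of IPO7 (chr11:9383941-9386559), with H3K27ac folds of 8.48 and 8.08 and H3K4me1 folds of 10.9 and 13.3.

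The strongest H3K4me1-only regions ranked near the top of their lists. An intergenic region nearest to GPR142 (chr17:72375205-72378069) had H3K4me1 percentiles of 99.980 and 99.958 and folds of 14.1 and 12.5. The TRIP10 and GPR108 promoter region (chr19:6737870-6739605) had percentiles of 99.978 and 99.955 and folds of 17.0 and 15.7. The others lay at SPINT1-AS1 inside SPINT1, which encodes an inhibitor of epithelial serine proteases (chr15:41137077-41141607), at NR2F6, an orphan nuclear receptor (chr19:17356840-17361702), and in an intron of SLC39A11 (chr17:70886729-70894651). Of these 5, TRIP10 alone had no H3K27ac peak in either list. The other 4 had a peak in 1 of the 2 lists, at percentiles of 17.7 to 36.9, and so sat at the edge of the class. Over the whole class such a peak was present in 4603 of 52190 regions.

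Inside the regions with both marks, promoters and distal sites differed in how acetylation sat on monomethylation. The acetylation summit lay inside an H3K4me1 region at 99.03% of 13051 distal regions and at 69.6% of 13345 promoters. Monomethylation covered less than 50% of the acetylated region at 0.873% and 30.8%. The summits of the 2 replicates were a median of 44 bp apart. Median percentiles of H3K27ac were 77.0 and 76.4 at promoters and 43.3 and 41.5 at distal regions, while those of H3K4me1 were 78.8 and 77.3 against 91.3 and 90.9. Ranks were close between replicates, with a Spearman correlation across the 26396 regions of 0.97 for H3K27ac and 0.94 for H3K4me1. Between the marks it was −0.13 in replicate 1 and −0.14 in replicate 2, with 0.25 and 0.24 over distal regions and −0.04 and −0.03 over promoters. These correlations are across regions, many of which share an H3K4me1 domain, and describe these lists only.

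The balance of the marks was then fitted for each of the 26396 regions with limma, with H3K27ac minus H3K4me1 as the difference. The values were normal scores of the region's rank among these regions in each list. They are not the percentiles given above and below, which are places in whole lists. In whole lists these regions had median percentiles of 59.7 and 58.4 for H3K27ac and 85.4 and 84.7 for H3K4me1. Higher percentiles in H3K4me1 can therefore go with a higher rank in H3K27ac. For H3K4me1 a region took the highest peak of any H3K4me1 region that it overlapped. A local acetylation peak was thus set against the top of a domain that could be much longer. A positive difference means a higher place in the acetylation ranking than in the monomethylation ranking of the same regions, not more acetylation than monomethylation. At a Benjamini-Hochberg adjusted p under 0.05, 10063 regions (38.1%) ranked higher in H3K27ac, 10720 (40.6%) ranked higher in H3K4me1 and 5613 were not called. With 2 lists per mark from 1 line, the p-values measure the spread between these libraries. Of the promoter regions 8848 (66.3%) ranked higher in H3K27ac and 2087 (15.6%) higher in H3K4me1. Of the distal regions 1215 (9.31%) and 8633 (66.2%) did. Each list was scored over the same regions, so positive and negative differences balance by construction. The promoter and distal shares therefore mirror each other in part. The regions higher in H3K27ac were also wider, with a median of 1363 bp against 928 bp.

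The regions called with the smallest p-values were all promoters on the acetylation side and all lay away from promoters on the monomethylation side. EIF1, a translation initiation factor, led the acetylation side (chr17:39845071-39846204). Its H3K27ac percentiles were 99.965 and 99.979 and its H3K4me1 percentiles 52.2 and 50.6, so the lists of the marks did not overlap, and the difference was 4.95 normal-score units (SE 0.115, limma adjusted p = 2.00e-05). NR1H2, the oxysterol receptor LXR-beta, CEP76 with PSMG2, ZCCHC7 and DDX59 followed with differences of 3.68 to 4.00. On the other side stood 2 acetylated regions inside ITGA3, the integrin alpha-3 chain that anchors epithelial cells to laminin (chr17:48139599-48140395 and chr17:48140830-48142539). They shared 1 H3K4me1 domain at percentiles of 100 and 99.999, the highest of replicate 1, while the H3K27ac percentiles of the first were 28.5 and 18.5. Its difference was −5.05 (SE 0.148, limma adjusted p = 2.00e-05). Regions near SMURF2, near UQCRHL and in an intron of SAP30BP, whose nearest coding start was that of the hemidesmosome integrin ITGB4, followed with −3.60 to −4.13.

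Base composition separated promoters from distal sites in the acetylated classes. The median share of G and C in 300 bp windows was 67.8% at H3K27ac-only promoters and 67.3% at promoters with both marks, against 63.7% at all 19845 canonical coding starts. It was 49.0% at H3K4me1-only promoters, and the median ratio of observed to expected CG dinucleotides there was 0.27, against 0.82 and 0.77 in the acetylated classes. Away from promoters the medians of G and C were 53.7% for H3K27ac only, 50.7% for both and 46.0% for H3K4me1 only. Promoters with H3K4me1 alone were thus closer in composition to distal regions than to other promoters. Windows of this class were centred on the region, not on the start, and its regions lay a median of 2056 bp from the nearest coding start. Windows at all coding starts ran from 250 bp upstream to 50 bp downstream, while those of the acetylated classes were centred on the summit.

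AP-1 letters were most frequent in monomethylated distal windows. They were in 27.6% of distal H3K4me1-only windows, 20.7% of distal windows with both marks and 8.49% of distal H3K27ac-only windows. At promoters the shares were 16.5%, 4.71% and 1.82%, beside 5.41% of all coding starts. TEAD letters varied less, from 9.34% in distal H3K27ac-only windows to 18.5% in distal H3K4me1-only ones, beside 11.3% of all coding starts. ETS letters showed the opposite order, with 8.87% and 8.61% at promoters with H3K27ac only and with both marks. Distal regions and H3K4me1-only promoters had 1.06% to 2.71%, and all coding starts had 14.1%. The windows at coding starts were placed otherwise, as given above. With windows of 600 bp, promoters with both marks had 20.1% and those with H3K27ac only 16.9%, against 17.5% of all coding starts. Matches are letters in a window and do not show binding.

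The AP-1 letters were not at the acetylation summit but beside it. In distal regions with both marks, 2.61% of windows held a match per 50 bp within 50 bp of the summit, 7.16% at 150 to 250 bp and 2.80% at 400 to 500 bp. With the summits of replicate 2 these were 2.49%, 7.32% and 2.87%, so the 2 flanking maxima appeared with either list. In distal H3K4me1-only regions the order was turned: 5.98% at the centre, 3.34% at 150 to 250 bp and 2.17% at 400 to 500 bp. These profiles are anchored on the middle of a region and not on a summit. Class and anchor cannot be told apart in this order or in the shares of windows with a match. The flanking maxima of distal regions with both marks lie beyond the edges of windows of 300 bp. With windows of 600 bp the share of these regions (49.6%) passed that of H3K4me1 only (41.2%). TEAD letters showed the same dip on a smaller scale (2.81%, 3.96% and 3.10%), and ETS letters did so at promoters with both marks (1.23%, 2.52% and 1.01%).

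**Figure D3:**
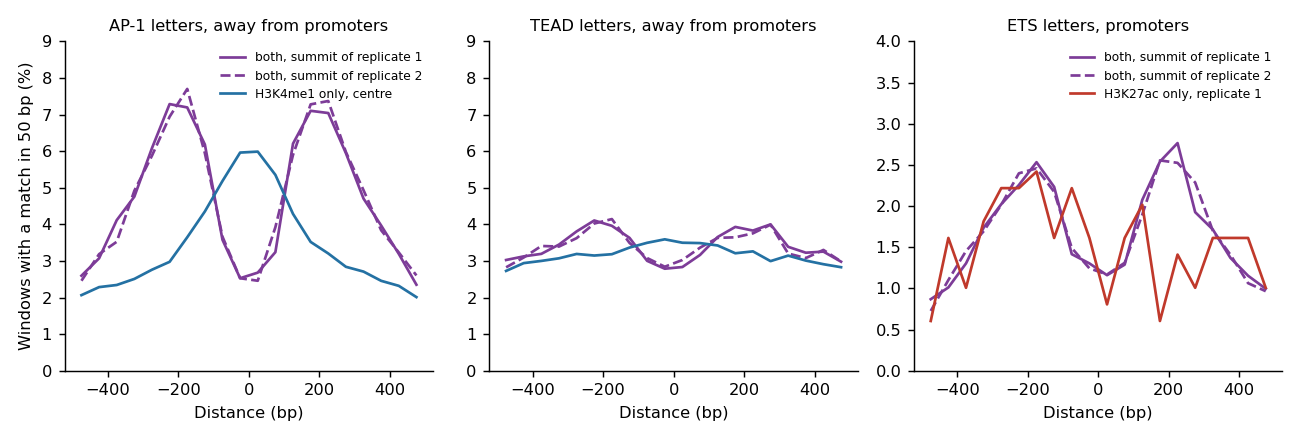
Share of windows (%) with a match in each 50 bp bin against the distance (bp) from the H3K27ac summit of replicate 1 or 2 or from the centre of the H3K4me1-only region; the scale of the third panel ends at 4%. AP-1 letters in distal regions with both marks reach 7.16% at 150 to 250 bp and fall to 2.61% at the summit, while in H3K4me1-only regions they are highest at the centre (5.98%).

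At the level of genes, both marks were found at a promoter of 11775 of 20136 coding genes (58.5%), H3K27ac only at 389 (1.93%), H3K4me1 only at 1852 (9.2%) and neither at 6120 (30.4%). Genes of colorectal identity were read against these shares. Both marks were at 12 of 20 intestinal transcription factors, 14 of 23 Wnt and stem cell genes and 14 of 20 epithelial adhesion and keratin genes, and none of the 3 lists had a gene with H3K27ac only. The first 2 counts were close to the background of all coding genes and the third lay only a little above it. None was tested. Housekeeping genes had both marks at 19 of 20, and TBP, the TATA-binding protein, had H3K27ac only (percentiles 97.6 and 97.0, chr6:170861556-170864118).

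**Figure D4:**
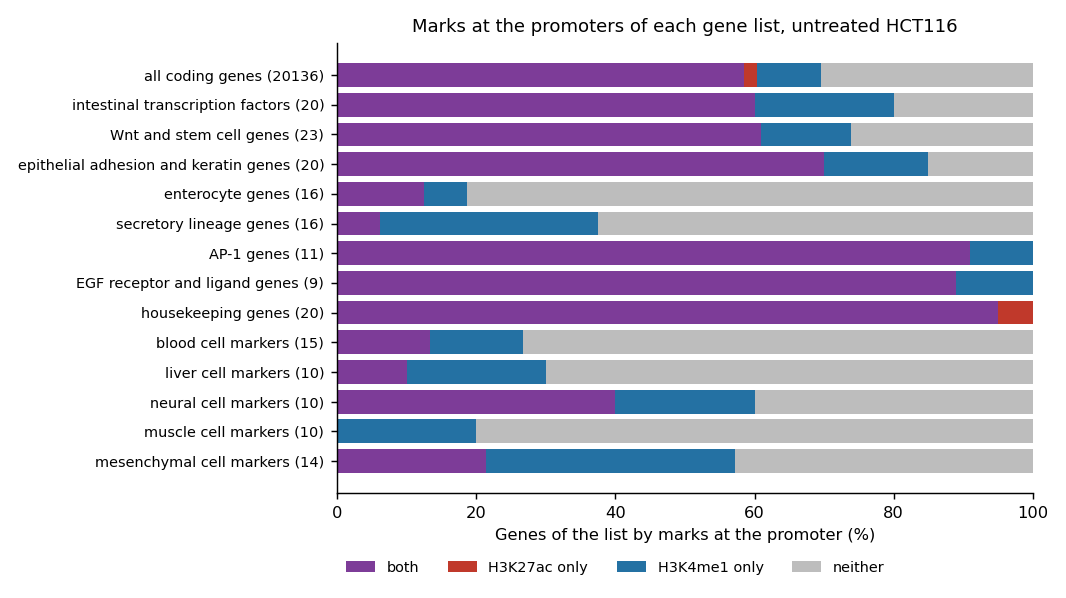
Share of the genes of each list (%) with both marks, H3K27ac only, H3K4me1 only or neither at a promoter, with the number of genes in brackets. All coding genes stand at the top for comparison, with both marks at 58.5%. Both marks were at 14 of 20 epithelial genes and 2 of 16 enterocyte genes.

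Among the intestinal transcription factors, CDX2, the master regulator of the posterior gut, had an H3K27ac region at its promoter (chr13:28541764-28543536) with percentiles of 69.5 and 73.7 and an H3K4me1 region with 63.2 and 79.2. Its relative CDX1 had neither mark at the promoter, although 2 distal regions with both marks and 6 with H3K4me1 only lay within 50 kb of its start. HNF4A, which directs enterocyte genes, had H3K4me1 only, at low percentiles of 26.9 and 17.8, and this call was lost when peaks needed a −log10 q of at least 5. HNF4G, its paralog, had both marks, at a start (chr8:76319413-76320598) far upstream of its canonical one, which had no region of either mark within 50 kb. KLF5 (76.5 and 80.0), SOX9 (74.3 and 76.0), PPARG, the epithelial ETS factor ELF3, KLF4, VDR, GATA6, FOXA1 and EHF were acetylated at percentiles from 80.0 down to 39.2. FOXA2, FOXA3 and ISX had H3K4me1 only, and GATA4 and ASCL2 had neither.

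ELF3 and EHF stood in the longest monomethylated domains of the list. The H3K4me1 region over ELF3 was 64951 bp long (chr1:201972799-202037749) with percentiles of 99.6 and 99.5, and its H3K27ac percentiles were 67.7 and 65.4. The EHF region was 51029 bp long with percentiles of 96.9 and 95.7, against H3K27ac percentiles of 41.5 and 39.2, and with the 0 h lists of the RAD21-depleted line EHF had H3K4me1 only. Neither gene's whole-list percentiles overlapped between the marks. On the ranks among regions with both marks, both genes ranked higher in H3K4me1, by −1.68 (SE 0.106, limma adjusted p = 3.4e-05) and −1.51 (SE 0.134, adjusted p = 0.0001). Of the other factors with both marks, CDX2, GATA6, KLF4, KLF5 and PPARG ranked higher in H3K27ac, by 0.51 to 1.25, and HNF4G, FOXA1, SOX9 and VDR were not called.

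Of the Wnt genes, AXIN2, the feedback scaffold of beta-catenin destruction, had H3K27ac percentiles of 97.7 and 96.3 (chr17:63556900-63557821) and H3K4me1 percentiles of 95.7 and 97.4. CTNNB1, which encodes beta-catenin, had 96.3 and 95.5 against 74.3 and 84.6, with all acetylation values above all monomethylation values. TCF7L2, the main intestinal partner of beta-catenin, had H3K27ac percentiles of 91.5 and 90.4. RNF43, which removes Wnt receptors from the surface, had 88.4 and 87.2, inside a monomethylated domain of 55497 bp. LGR5, the marker of intestinal stem cells, had H3K4me1 only (84.7 and 83.7), as did the secreted inhibitor NOTUM (94.2 and 97.4) and the Wnt target SP5 (93.4 and 90.7), which had an H3K27ac peak in 1 list. ASCL2, LEF1, APCDD1, TDGF1, OLFM4 and SMOC2 had neither mark, and around the stem cell genes OLFM4 and SMOC2 no region of either mark lay within 50 kb. In the balance fit LGR4, AXIN2, ZNRF3, EPHB2, PROM1 and CTNNB1 ranked higher in H3K27ac (0.80 to 2.16), RNF43 and EPHB3 higher in H3K4me1 (−0.48 and −1.21), and 6 of the 14 were not called.

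Of the 14 epithelial genes with both marks, 7 ranked higher in H3K4me1, 3 ranked higher in H3K27ac and 4 were not called, with KRT8 and KRT18 both counted for 1 shared region. Over all promoter regions with both marks, as given above, these shares were 15.6% and 66.3%, and the list was not tested against them. The adherens junction genes CDH1 and JUP had H3K27ac percentiles of 64.3 and 67.0 and of 83.9 and 85.3, against H3K4me1 percentiles of 98.6 and 98.4 and of 99.9 and 99.7. These whole-list percentiles did not overlap between the marks at either gene. On the ranks among regions with both marks, the differences were −1.17 (SE 0.112, limma adjusted p = 0.00013) and −1.31 (SE 0.131, adjusted p = 0.00016). KRT8 and KRT18, the keratin pair of simple epithelia, shared an acetylated region (90.3 and 91.0, chr12:53342336-53344137) at the KRT18 promoter, where an alternative KRT8 start lies, and ranked higher in H3K4me1 by −0.44 (adjusted p = 0.012). KRT19 and CLDN4 did so too, by −0.94 and −0.54. EPCAM, the desmosomal DSP and the epithelial regulator GRHL2 ranked higher in H3K27ac, by 0.75, 1.53 and 1.61, and CLDN3, CLDN7, ST14 and ESRP1 were not called. KRT20, CLDN1 and CEACAM5 had H3K4me1 only, and CDH17, GPA33 and CEACAM6 had neither. Where a gene has several promoters, the percentile of each mark is that of its highest-ranking region at any of them, so at KRT8, HNF4G, EHF and TNFRSF19 the acetylated region lay at another start than the canonical one, and at EPCAM, CLDN7, KRT8, GATA6, KLF4, KLF5, PPARG and ZNRF3 the top regions of the 2 marks were different ones.

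**Figure D5:**
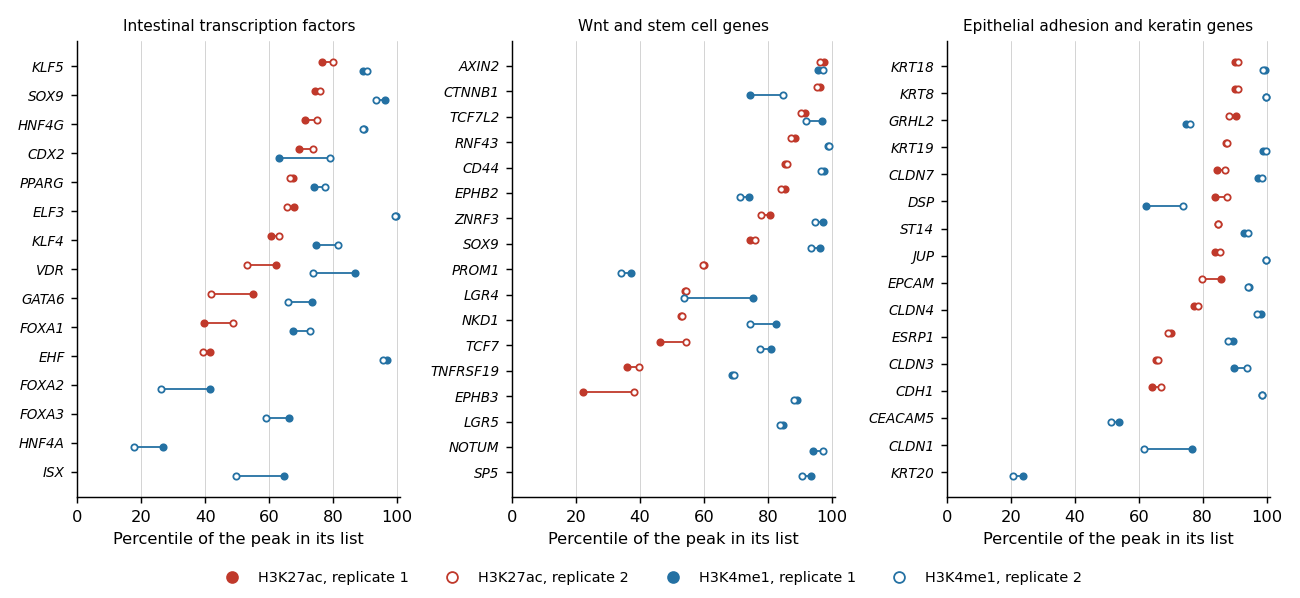
Percentile of the top peak at a gene's promoters within its own list, for H3K27ac (red) and H3K4me1 (blue) in replicates 1 (filled) and 2 (open), for genes of the 3 lists with either mark. Genes without red points had H3K4me1 only. AXIN2 stands high in both marks, and ELF3, EHF and CDH1 stand at higher percentiles in H3K4me1 than in H3K27ac. The percentiles are places in whole lists, so the order of red and blue is not the fitted balance.

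The surroundings of these genes were also measured, as the length covered within 50 kb on either side of the canonical start. The median coding gene had 11.4 kb of H3K4me1 and 2.43 kb of H3K27ac in that window. KRT8 had 77.1 kb of H3K4me1, EHF 76.2 kb, TCF7L2 73.2 kb and ELF3 66.5 kb, each above the 99th percentile of coding genes (65.1 kb). For H3K27ac, JUP (13.1 kb) and CLDN7 (12.9 kb) passed that percentile (12.7 kb). List medians of H3K4me1 and H3K27ac were 12.1 and 2.38 kb for intestinal factors, 6.43 and 1.17 kb for Wnt genes and 32.0 and 4.87 kb for epithelial genes. Housekeeping genes had 29.8 and 4.87 kb, and TUBB (73.6 and 15.6 kb) and the AP-1 gene FOSB (70.2 and 16.2 kb) passed both cut-offs. Such lengths were thus not particular to the identity lists. Neighbouring genes share these windows. Genes of mature gut cells with neither mark at the promoter could still have marked surroundings: LGALS4, an enterocyte galectin, had 4 distal regions with both marks within 50 kb, and the cadherin CDH17 had 3.

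Differentiation genes were mostly without marks at the promoter. Of 16 enterocyte genes, CA2 and DPP4 had both marks, SLC5A1 had H3K4me1 only and 13 had neither. Of 16 secretory genes, MUC2, the main gel-forming mucin, had both (H3K27ac 45.8 and 41.5, H3K4me1 98.1 and 97.8), ATOH1, CHGB, LYZ, REG4 and FCGBP had H3K4me1 only and 10 had neither. AP-1 genes had both marks at 10 of 11, with BATF3 as the exception (H3K4me1 only), and FOSB, FOS and MAFF were acetylated at percentiles above 99. The EGF receptor and ligand genes had both at 8 of 9, with H3K4me1 only at EPGN. FOSL1, another AP-1 subunit, was high in both marks, with H3K27ac percentiles of 97.6 and 96.3 and H3K4me1 percentiles of 99.9 and 99.9.

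Markers of other cell types gave the counterpart. Both marks were at 2 of 15 blood genes (CD8A and LYL1), 1 of 10 liver genes (CYP2E1), 0 of 10 muscle genes, 3 of 14 mesenchymal genes (ZEB1, TWIST1 and ACTA2) and 4 of 10 neural genes (PAX6, SYP, MAP2 and TUBB3). At CD8A, CYP2E1 and ACTA2 the acetylated region lay at another annotated start than the canonical one. Neither mark was at 11 blood, 7 liver, 8 muscle, 6 mesenchymal and 4 neural genes of these lists. PTPRC, CD3E, ALB, MYOD1 and COL1A2 were among them. H3K4me1 only was at CD14, CSF1R, TTR, SERPINA1, SNAP25, GFAP, TNNT2, CKM, VIM, ZEB2, COL1A1, FN1 and PDGFRA. VIM, the intermediate filament of mesenchymal cells, had H3K4me1 percentiles of 92.8 and 89.1 with no H3K27ac peak in either list. TUBB3 was the strongest marker of another cell type, with H3K27ac percentiles of 96.5 and 96.0.

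In the other lists of the series the 3 classes were found again to different degrees. Peaks of the WT 10 h H3K27ac lists overlapped 92.0% and 92.1% of the regions with both marks, 70.2% and 70.3% of the H3K27ac-only regions and 9.76% and 9.56% of the H3K4me1-only regions. No H3K27ac list of the series held a peak in 37775 (72.4%) of the H3K4me1-only regions. Of the 7 H3K27ac lists with the word input, every one called 93.9% of the promoters with both marks and 64.5% of the distal regions with both. H3K4me1 peaks at 1 h of Nutlin-3a overlapped 23.9% and 20.0% of the H3K27ac-only regions and at 10 h 12.5% and 19.1%. The H3K4me1-only regions had H3K4me1 peaks in 93.1% and 90.5% at 1 h and in 86.2% and 92.1% at 10 h. Differences in treatment, in line and in how the lists were made cannot be told apart in these shares.

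The H3K27ac-only class was the least fixed in number. It held 548 regions when peaks were merged over all lists of a mark, 2189 when only bases covered in both lists were used and 3060 when the 0 h lists of the RAD21-depleted line, with the word input in their names, stood in for the WT lists. Its share at promoters was then 17.9%, 73.1% and 10.8%. The class with both marks and its share at promoters moved less, the latter to 53.6%, 47.7% and 51.3%. Line, RAD21 depletion and way of calling cannot be told apart in the third of these.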

How the data were processed

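ChIP-seq peak lists of vehicle-treated WT HCT116 cells were analysed, 2 for H3K27ac and 2 for H3K4me1, and the 12 other lists of the series served for comparison. The input libraries were not analysed here. Per the study's methods, trimmed reads were aligned to GRCh37 by Bowtie2, cleared of duplicates and blacklisted regions and passed to MACS2, narrow for H3K27ac and broad for H3K4me1, with input as control. The submitters' processing notes name MACS2 2.2.7.1, Bowtie2 2.3.2 and Trim Galore 0.6.6. The deposited fold is the authors' ratio of a peak over local background, and −log10 scores for p and q are as deposited; all were used within a list only. The lists hold no read counts, so the depth of these libraries was not compared here. The study set a higher minimum of read pairs for H3K4me1 than for H3K27ac. Shares of regions carry 95% Wilson intervals for counting error only. The weakest peaks had a −log10 q-value of 1.30 for H3K27ac and 1.01 for H3K4me1.

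Groups and replicate numbers came from the labels. Peaks on chromosomes 1 to 22, X and Y were merged, kept when called in both lists of a mark and classed by 1 bp of overlap. A promoter spanned the 1000 bp before and the 200 bp after a basic transcript start of GENCODE 44 lifted to GRCh37. A gene's promoter was taken as marked through any such start. The mark balance was fitted with limma 3.58.1 (R 4.3.3), with trended eBayes moderation of normal scores of ranks by −log10 p, without covariates, and was tested on simulated data first. Where a region held several peaks, the highest was used, and for H3K4me1 the highest in the whole overlapping H3K4me1 region. Motifs were counted in 300 bp windows of GRCh37, with 600 bp as an alternative.

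Deviations of same-numbered lists of the marks correlated at 0.01 over 26396 regions, so the main fit did not pair them. This does not show that same-numbered libraries came from separate cells. Named regions were the 5 top-ranking and 3 widest of each class and the 5 with the smallest p in each direction. Named genes came from fixed lists, and some of their members are not reported here. Members and lists were chosen with earlier results of these data known. Alternatives were other merging, overlap, threshold, promoter and window settings, ranking by fold, no trend, a replicate block and leaving out lists.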

Additional observations from a re-analysis of the deposited data

Results flagged for a closer look

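The untreated H3K27ac list of replicate 1 held 4 peaks on the mitochondrial genome, above the floor of 3 that was set for such counts. This genome carries no nucleosomes and entered no comparison. Untreated replicate 2 and replicate 1 of WT at 1 h, whose peak names also lack the word input, held 3 each.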

How the results depend on the processing

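The number of H3K27ac-only regions was the least stable. It was 548 with peaks merged over all lists of a mark, 2189 with only bases covered in both lists, 1772 at a minimum −log10 q-value of 5, 5191 when 50% of the acetylated region had to be covered, 3060 with the 0 h lists of the RAD21-depleted line (an alternative chosen after seeing the data) and 1140 to 3614 with a list or replicate left out. H3K4me1-only regions fell to 22180 at the stricter q-value. The 27 other counts lay within 1.5 times the reported ones, 49882 to 67176 for H3K4me1 only and 26089 to 30500 for both with a list left out.

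In the same order of settings, the share at promoters of H3K27ac only was 17.9%, 73.1%, 70.9%, 88.7% and 10.8%. It was 41.8% with promoters of coding genes alone, 58.1% with 2500 bp either side and 22.4% to 61.9% with a list left out. For both marks these were 53.6%, 47.7%, 55.3%, 41.7%, 51.3%, 43.9%, 56.5% and 44.6% to 50.2%. For H3K4me1 only they were 10.1%, 11.7%, 15.7%, 10.4% (with no H3K27ac peak in either list), 9.62%, 5.50%, 20.4% and 9.86% to 11.1%. Median widths of H3K27ac only were 791.5, 825, 1011.5, 1503 and 778.5 bp, and 334 to 820.5 bp with a list left out. For both marks they were 2148, 878, 1213, 1034 and 1595 bp, and 892 to 1118 bp. For H3K4me1 only they were 1466, 827, 1763, 1088 (with no H3K27ac peak in either list) and 1163 bp, and 839 to 1120 bp. In all of these the cause was not tested.

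With windows of 600 bp, AP-1 letters were in 49.6% of distal regions with both marks and 41.2% of those with H3K4me1 only. The difference turned from −6.91 to 8.40 percentage points, and was −6.94 to −5.97 with a list left out. The shares without a replicate were 20.5% to 21.4% and 26.4% to 28.3%. ETS letters at promoters with both marks rose to 20.1%, beside 17.5% of all coding starts, and were 8.28% to 8.43% without a replicate. A wider window holds more letters by construction.

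The replicate block gave 9979 regions higher in H3K27ac rank and 10691 higher in H3K4me1 rank, and 20399 of the 20783 calls had the same region and direction; the block changed no call of the named regions. Over all alternatives these counts ran from 8361 to 10072 and from 8795 to 10996. With a list left out they were 9908 to 10044 and 10298 to 10996. The named regions kept their calls in all 96 checks of a region under an alternative. Genes with both marks in the 3 identity lists stayed within 1.5 times, at 14 to 15 for Wnt, 13 to 14 for epithelial and 12 for intestinal genes with a list left out, and 13, 11 and 8 when 50% had to be covered. Of 610 promoter states, 18 changed. Among them, HNF4A, FOXA2 and KRT20 lost H3K4me1, and PROM1 kept H3K27ac only, at the stricter q-value. Without a list SP5 gained H3K27ac and CEACAM5 lost H3K4me1 in 1 setting or more each. The lists hold no depth, so a region absent from a list was not detectable there rather than unmarked.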
